A study of Rattus norvegicus with 12 samples.

Results

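Motile cilia of the brain are carried mainly by the ependyma, the sheet of cells that lines the ventricles and the cerebral aqueduct, and 40 genes of their machinery and of the cells that bear them were followed across a series of rat periaqueductal grey libraries. The members are a list of genes kept at a mean of at least 0.5 TPM (a transcript's abundance corrected for its length and scaled to the library's total), and no measured group difference was used to choose them. Earlier results of these data were known when the list was made. Of the 40, 38 were found by symbol and all 38 passed that filter, among 24540 genes that passed it of 41596 in all. The transcription factor gene Foxj1 and the central pair gene Cfap46 were not found under these symbols and have no value here, so the ependymal identity of the signal rests on Ccdc153, the other marker set for these cells. Ccdc153 was between 14.7 and 75.7 TPM in 11 of the 12 libraries and at 1.54 TPM in the library morphine-sired 2.

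The libraries are polyA RNA from the periaqueductal grey, the midbrain grey matter around the aqueduct, of male Sprague Dawley rats. In 6 of them the labels give the animal as saline-sired and in the other 6 as morphine-sired, so the treatment named is that of the father and not of the animal itself. The labels give no age, litter or sire identity. The series asks whether paternal morphine exposure is followed by a different response to morphine in the offspring. With neither named, each animal was counted as an independent replicate.

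A motile cilium is built on a ring of doublet microtubules around a central pair. Outer and inner dynein arms slide the doublets against each other, nexin links and radial spokes turn the sliding into bending, and proteins inside the microtubules stiffen them. Ependymal cells bear tufts of such cilia, which move cerebrospinal fluid along the ventricles and the aqueduct. Most other cells of the brain carry a single primary cilium, which lacks dynein arms, spokes and a central pair. The genes of motile cilia are switched on together by FOXJ1 and by RFX factors, which bind X-box sequences through the core GTTGCC.

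Promoter sequences of the members were searched for RFX and forkhead motifs. RefSeq promoters (build GRCr8) were matched by symbol for 30 of the 38 genes, and the 250 bases before each start were read on both strands. The core GTTGCC was in 9 of the 30 promoters (30%), beside 10.8% of 27457 promoters of the same length. The forkhead motif TGTTTAC was in 3 of 30 (10%), beside 3.54% of all, and the full palindromic X-box was in 0 of 30, beside 0.382% of all. The core is part of the full motif up to its free positions, and a match is a description of letters, not of binding. The 5 windows below, 1 from each of 5 parts of the cilium or cell, are shown because they hold the core, and Mlf1 holds both short motifs within 1 window. Each is 50 bases, 5′ to 3′ on the strand of the gene, with GTTGCC, its reverse complement GGCAAC and TGTTTAC in capitals.
Mlf1, chr2:153958418-153958467, plus strand: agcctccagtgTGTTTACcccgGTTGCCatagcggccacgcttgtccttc
Drc1, chr6:31779257-31779306, minus strand: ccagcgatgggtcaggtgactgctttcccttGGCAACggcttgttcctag
Tekt1, chr10:57479133-57479182, minus strand: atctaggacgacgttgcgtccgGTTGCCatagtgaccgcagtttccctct
Dnai2, chr10:100258945-100258994, plus strand: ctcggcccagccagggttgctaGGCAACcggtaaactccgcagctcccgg
Hydin, chr19:55146416-55146465, plus strand: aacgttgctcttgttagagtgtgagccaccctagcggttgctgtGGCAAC
The core ends 13 bases before the start in Drc1, 33 before it in Tekt1, 49 before it in Dnai2 and 145 before it in Mlf1. In Hydin it ends at the last base before the start.

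The level of the motile cilia genes differed between libraries far more than that of most genes. The SD of log2(TPM + 1) over the 12 libraries had a median of 0.76 over the 38 genes, beside 0.24 over all 24540 genes and 0.27 over the 19475 genes whose mean lay within the range of the members' means. Without morphine-sired 2 the median over the 38 was 0.55. The genes moved together: Pearson's r between 2 members over the 12 libraries had a median of 0.93 over 703 pairs (0.52 to 1.00), and 600 pairs were above 0.8. With morphine-sired 2 left out the median was again 0.93. In a list of 15 genes of the primary cilium the median r over 105 pairs was 0.30. These r values are descriptions, since all pairs share the same 12 libraries. In bulk tissue, fewer cells of a type and less RNA per cell cannot be told apart.

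**Figure D1:**
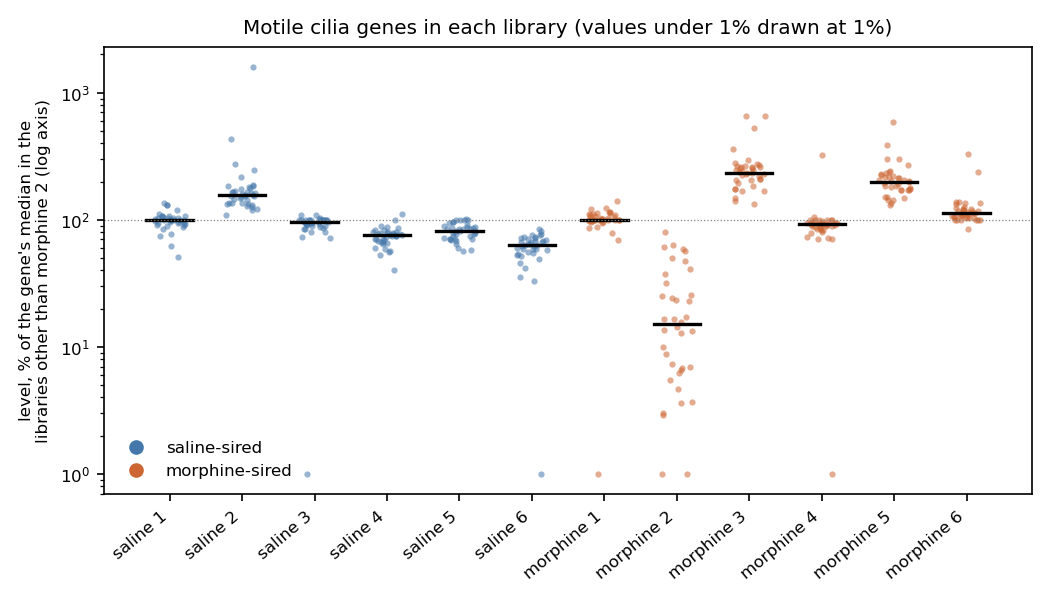
Level of each of the 38 motile cilia genes in each library (points), as a percentage of that gene's median over the 11 libraries other than morphine-sired 2, on a log axis; black bars are the median over the genes, and values under 1% are drawn at 1%. The bars of morphine-sired 3 (235%), morphine-sired 5 (199.9%) and saline-sired 2 (158%) lie highest and that of morphine-sired 2 (15.1%) lowest.

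For each library the level of every member was set against that gene's median over the 11 libraries other than morphine-sired 2, and the median of these percentages was taken. Morphine-sired 3 stood highest at 235%, followed by morphine-sired 5 at 199.9% and saline-sired 2 at 158%. The next libraries lay close together: morphine-sired 6 at 112%, morphine-sired 1 and saline-sired 1 at 100% each, saline-sired 3 at 95.6% and morphine-sired 4 at 91.8%. Saline-sired 5 (81.8%), saline-sired 4 (75.4%) and saline-sired 6 (63.7%) came after them, and morphine-sired 2 was at 15.1%. The high end and the low end were thus both held by morphine-sired libraries. The plot of the members by library shows this order.

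Most single genes repeated that order. Morphine-sired 3 was the highest library for 29 of the 38 members, where it was the highest for 11.2% of all genes tested, and morphine-sired 3 and 5 were the top 2 libraries for 31 of 38. Morphine-sired 5 was the highest for Rsph1, Rsph4a, Dnai2, Drc3, Iqcg, Cfap70 and Cfap126, saline-sired 1 for Ccdc39 and saline-sired 2 for Spag16. Morphine-sired 2 was the lowest library for 35 of the 38, where it was the lowest for 19.1% of all genes tested. The exceptions were Ccdc39, lowest in saline-sired 4, Zmynd10, lowest in saline-sired 6, and Spag16, listed at 0 in 5 libraries. Depth does not order the libraries in the same way: it was 4.97 gigabases in morphine-sired 2, 5.47 in morphine-sired 3 and 5.01 in morphine-sired 5, within a range of 4.39 to 6.03 over the 12.

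Ccdc153, a coiled-coil gene used as a marker of ependymal cells, lies on chromosome 8 (48569328 to 48577855, plus strand, Rnor_6.0) with up to 7 exons. Its saline-sired values ran from 14.7 through a median of 24.0 to 46.0 TPM, and its morphine-sired values from 1.54 through 32.8 to 75.7 TPM. The lowest and the highest library were therefore in the same group, and the saline-sired range lay inside the morphine-sired one. Its median over the other 11 libraries was 18.3-fold its level in morphine-sired 2. Tmem212, which encodes a membrane protein of ciliated cells, followed the same course, with 11.8 to 35.7 TPM in saline-sired (median 21.0) and 1.13 to 62.9 TPM in morphine-sired libraries (median 26.9). Pifo, a gene of the cilium and its basal body, ran from 2.70 to 10.0 TPM in saline-sired and from 0.405 to 15.3 TPM in morphine-sired libraries. Mlf1, whose product is found in ciliated epithelia, ran from 6.82 to 19.8 and from 2.13 to 36.3 TPM. Ccdc153, Tmem212 and Pifo kept 5.45%, 4.69% and 6.23% of their median level in morphine-sired 2, and Mlf1 14.4%.

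Among the dynein genes, which encode the motors of the arms, the light chain gene Dynlrb2 had the highest level. On chromosome 19 (49016891 to 49028404, plus strand), it ran from 19.9 through a median of 29.9 to 59.1 TPM in saline-sired and from 3.36 through 36.9 to 87.8 TPM in morphine-sired libraries. Its paralog Dynlrb1, a light chain of cytoplasmic dynein made in most cells, lay between 366 and 418 TPM in all 12 libraries and stood in morphine-sired 2 at 103% of its median over the others. Dynlrb2 stood there at 10.0%. How reads of the 2 paralogs were divided was not tested. The cytoplasmic heavy chain Dync1h1 was at 121% in morphine-sired 2, and Mlf2, the paralog of Mlf1, at 98.2%.

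The 4 axonemal heavy chains differed in how much was left in morphine-sired 2. Dnah1, an inner arm heavy chain with up to 79 exons on chromosome 16 (7345978 to 7408265, minus strand), was at 0.387 TPM there and at 4.01 to 15.8 TPM in the other 11. The outer arm chains Dnah11 and Dnah5 kept 24.0% and 37.1% of their medians, and Dnah9 kept 63.6%. Dnah9 lies on chromosome 10 (52349513 to 52711217, minus strand), and its total in morphine-sired 2, 6.20 TPM, was spread over several models. Its assembled transcript of 70 exons was listed at 0 in morphine-sired 2, with a median of 2.87 TPM in the other 11 libraries. An assembled transcript of 10 exons was at 3.22 TPM in morphine-sired 2, and the annotated one of 69 exons at 1.79 TPM. Reads shared by such overlapping models are divided by estimate, so single transcripts are uncertain. The intermediate chain genes Dnai1 and Dnai2, which anchor the outer arm, were at 1.80 and 0.419 TPM in morphine-sired 2, beside lowest values of 5.24 and 0.897 TPM in the others.

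Zmynd10, needed to assemble dynein arms in the cytoplasm, and Armc4, part of the docking of the outer arm, make up the next group. Zmynd10, on chromosome 8 (116302513 to 116306870, plus strand), differed from the other members by a gap in level. It was between 2.42 and 7.28 TPM in 7 libraries (5 saline-sired and morphine-sired 1 and 2) and between 23.5 and 48.1 TPM in the other 5 (saline-sired 2 and morphine-sired 3 to 6). Its locus also holds transcripts of Nprl2. Summed over the whole locus, the same 7 libraries were between 41.9 and 48.8 TPM and the same 5 between 60.2 and 85.6 TPM. Morphine-sired 2 stood at 85.9% of the median of the others in that sum. How reads were divided between the 2 symbols was not tested. Armc4 was low throughout, from 0.872 to 1.70 TPM in saline-sired and from 0.222 to 3.22 TPM in morphine-sired libraries.

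Radial spokes connect the doublets to the central pair. Rsph1, on chromosome 20 (9998701 to 10013559, minus strand), ran from 12.0 through a median of 15.1 to 27.0 TPM in saline-sired and from 3.00 through 20.003 to 43.3 TPM in morphine-sired libraries. The spoke head gene Rsph4a was lower, with 1.86 to 5.83 and 0.421 to 8.54 TPM. Rsph9, a further spoke head gene, kept more of its level: it was at 14.1 TPM in morphine-sired 2, 47.1% of its median in the others.

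The nexin link and the ruler that spaces the arms gave the widest range of values in morphine-sired 2. Drc7, a nexin link gene on chromosome 19 (10363098 to 10380809, minus strand), was at 0.275 TPM there and at 5.13 to 19.7 TPM in the other 11. Drc1, a scaffold of the link, kept 23.2% of its median and Iqcg 12.7%, while Drc3 kept 61.5%. The ruler is made of CCDC39 and CCDC40 together, yet their genes differed: Ccdc40 kept 13.5% and Ccdc39 79.6%. Ccdc39, on chromosome 2 (120276615 to 120316600, minus strand), had the narrowest spread of the list, from 6.67 to 12.7 TPM over all 12 libraries. Its annotated transcript of 20 exons was listed at 0 in morphine-sired 2, beside a median of 1.25 TPM in the others. An assembled transcript of 19 exons and 6098 bases was at 5.34 TPM there, 154% of its median. Another assembled transcript of 19 exons, with 7118 bases, was at 2.13 TPM there, 45.8% of its median. How reads were divided between these models was not tested.

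Of the central pair genes, all but Cfap70 kept small shares in morphine-sired 2. Hydin, a very large central pair gene with up to 97 exons on chromosome 19 (41036339 to 41379594, minus strand), ran from 5.74 through a median of 8.85 to 17.6 TPM in saline-sired and from 0.688 through 11.8 to 27.9 TPM in morphine-sired libraries. Spag17 was listed at 0 in morphine-sired 2 and ran from 1.32 to 6.78 TPM in the other 11. Spag16 was listed at 0 in 5 libraries (saline-sired 3 and 6 and morphine-sired 1, 2 and 4) and highest in saline-sired 2 at 3.57 TPM. Cfap65, at 0.310 TPM, kept 6.82% of its median and Spef2 17.2%. Cfap70, an axonemal gene grouped here with the central pair, kept 58.7%, though its annotated transcript of 29 exons kept 14.3%.

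The remaining axonemal genes include proteins inside the doublets. The tektins Tekt1 and Tekt4, filaments of the doublet wall, kept 31.9% and 25.0% of their medians in morphine-sired 2. Cfap45 and Cfap52, which sit inside the doublets, kept 6.54% and 25.7%. Cfap43 and Cfap44, partners in the tether of the inner arms, kept 3.02% and 3.70%: Cfap43 was at 0.480 TPM in morphine-sired 2 and at 8.31 to 35.7 TPM elsewhere. Ak7, an adenylate kinase of the axoneme, was at 0.427 TPM beside 9.67 to 40.2 TPM in the others, which is 2.93% of its median. Armc3 kept 8.70%. Cfap126, at the base of the cilium, kept 49.6% and Ccdc113, a coiled-coil gene of the axoneme, 57.0%.

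**Figure D2:**
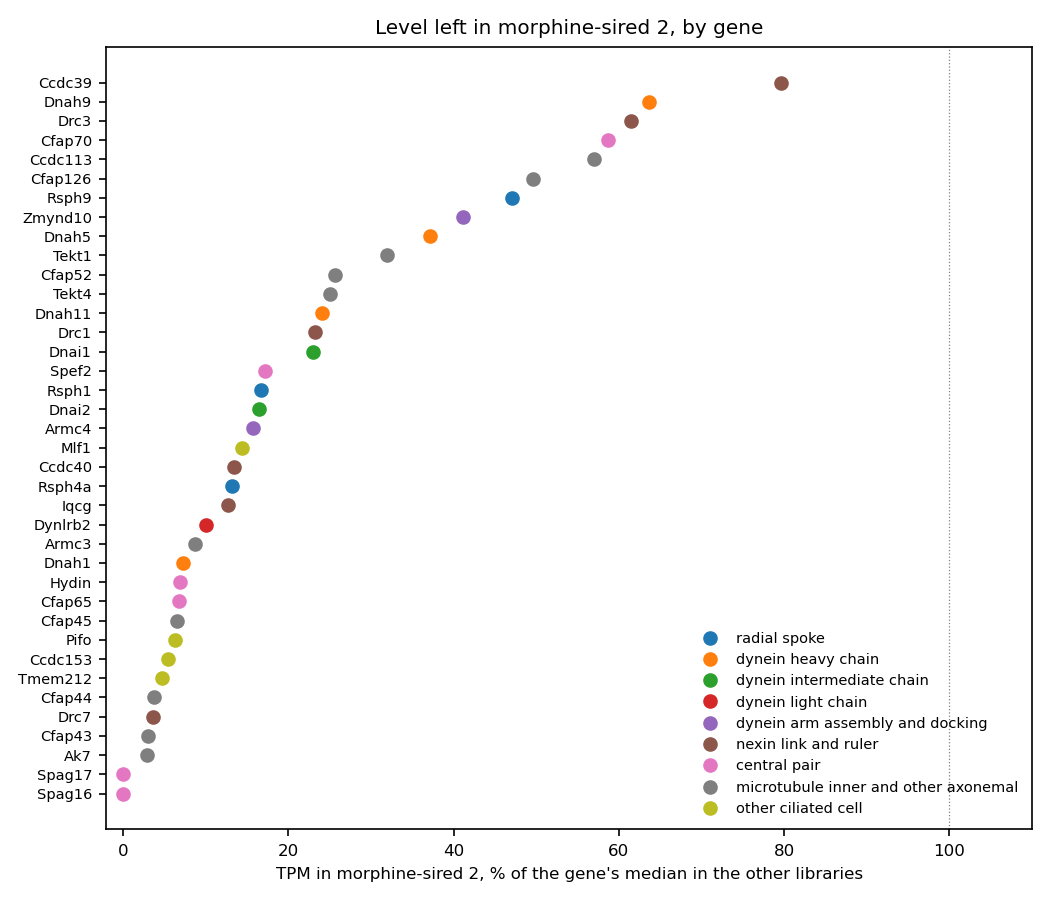
TPM of each of the 38 genes in morphine-sired 2 as a percentage of its median over the other 11 libraries, ordered by that share and coloured by role. Spag16 and Spag17 lie at 0, 33 genes lie under 50%, and Ccdc39 is highest at 79.6%.

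Over all roles, 33 of the 38 genes were below 50% of their median in morphine-sired 2, and the 5 above were Ccdc39, Dnah9, Drc3, Cfap70 and Ccdc113. The median share by role was 6.85% for the 6 central pair genes, 5.84% for the 4 other genes of ciliated cells, 16.9% for the 10 microtubule inner and other axonemal genes, 18.4% for the 6 nexin link and ruler genes and 30.6% for the 4 heavy chains. The ranges of the roles overlapped widely, as the plot of the share left by gene shows. The share left in morphine-sired 2 was compared with the SD over the other 11 libraries across 36 members (without Spag16 and Spag17). Spearman's rho was -0.65, a description across genes: genes that kept more in morphine-sired 2 also differed less between the others.

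Further axonemal genes outside the list gave the same picture. Of 59 genes in 3 lists of other dynein arm, spoke, central pair, nexin link and doublet genes, 49 were tested, 43 were lowest in morphine-sired 2 and 41 highest in morphine-sired 3. Their median share in morphine-sired 2 was 20.1%. The inner arm heavy chain Dnah7 was at 0.0280 TPM there and at 2.41 to 13.7 TPM in the other 11. Dnal1, a dynein light chain, and Cfap20, which also occurs in other cilia, stood at 89.3% and 92.5%. Of 10 genes for the cytoplasmic assembly of dynein arms, 6 were below 50%. The primary cilia list was apart from these: 0 of its 15 tested genes were below 50%, and their median share was 85.4%.

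Regulators of multiciliated cells split in the same way. Of 15 listed genes 11 were tested, of which 5 were below 50% in morphine-sired 2. Myb, a transcription factor of the multiciliated programme, was at 0.242 TPM there and at 2.45 to 9.74 TPM elsewhere. Tp73, a further activator of that programme, was at 0.470 beside 2.48 to 11.6 TPM. Ccdc78 kept 24.6% and Deup1, both linked to the amplification of centrioles, 8.75%. Rfx2 kept 38.7% and Rfx3 65.4%, and E2f4, which acts in many dividing and resting cells, was at 103%. Gmnc, Mcidas and Ccno, which act while the cells form, were below the filter.

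The genes most like the list were ranked by Pearson's r over the 12 libraries with the mean standardised profile of the 38 members. The 10 highest were Cfap57 (0.99), Dnah2, Adgb, Enkur, Tjp3, AABR07030823.1, Spag6l, Ccdc146, LOC502684 and Ttc21a (0.99), of which Cfap57, Dnah2, Enkur and Spag6l were in the lists of other axonemal genes. Cfap57 ran from 0.624 TPM in morphine-sired 2 to 9.27 TPM in morphine-sired 3. Adgb ran from 0.0797 to 8.92 TPM between the same libraries.

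**Figure D3:**
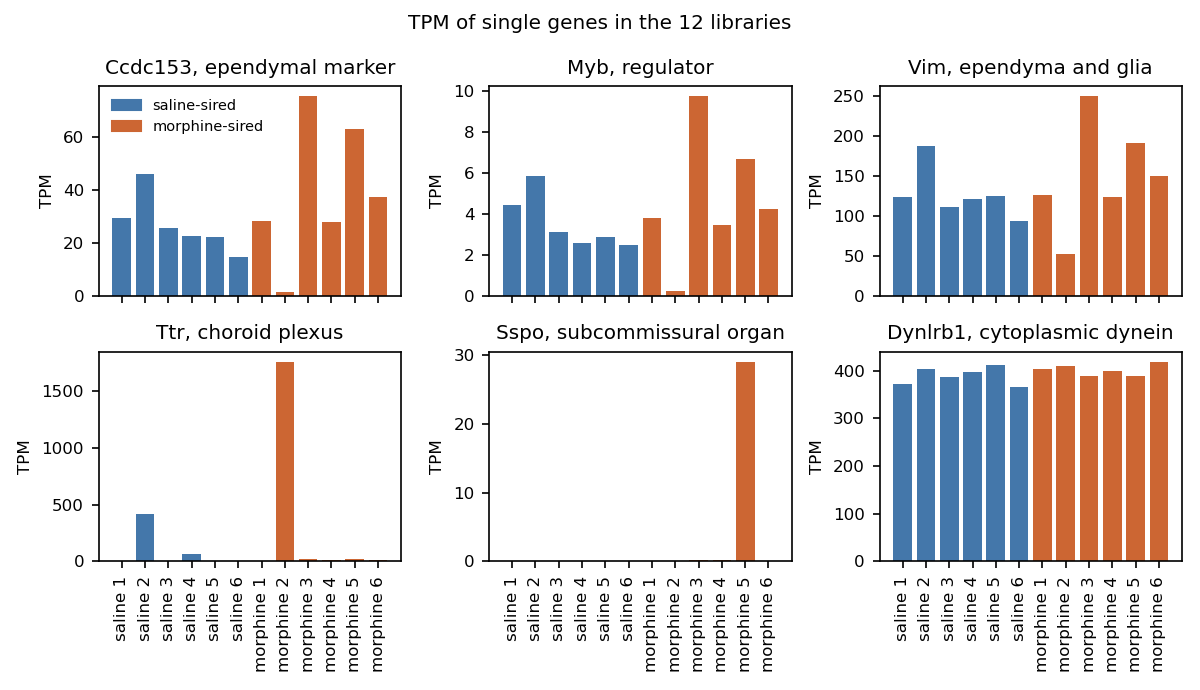
TPM of 6 genes in the 12 libraries (bars, 1 per library, axes from 0): Ccdc153, the regulator Myb, Vim, Ttr, Sspo and the cytoplasmic light chain Dynlrb1. Ccdc153 and Myb are lowest in morphine-sired 2 and highest in morphine-sired 3, Ttr stands out in morphine-sired 2 and saline-sired 2, Sspo in morphine-sired 5, and Dynlrb1 is nearly level.

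Markers of other cells that a piece near the aqueduct can hold were measured beside the cilia genes. Vim, a filament gene of ependyma and glia, was at 52.0 TPM in morphine-sired 2 and at 94.1 to 250.3 TPM in the others, and Cd24, a surface gene of ependymal cells, was at 5.95 beside 9.87 to 37.7 TPM. Of the 12 tested genes of ependyma outside the cilium, 7 were lowest in morphine-sired 2, and only Vim and Cd24 were below 50% of their median. The list is not particular to ependyma: Sox9 and Gja1 are also in the astrocyte list. The median share of the 12 was 80.4%, and 5 of them (Mia, Rarres2, S100b, Nes and Cd9) were above their median in that library, up to 127% for Mia. Choroid plexus genes ran the other way in that library. The carrier gene Ttr was at 1756 TPM in morphine-sired 2, at 413 TPM in saline-sired 2 and at 0.286 to 62.5 TPM in the other 10. Of 13 tested choroid plexus genes, 11 were above their median in morphine-sired 2 and 9 were above 200% of it. Summed without Ttr, the list's 13 other genes came to 19.9 to 53.0 TPM in saline-sired and 27.2 to 86.4 TPM in morphine-sired libraries.

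The libraries with the most cilia RNA also differed in other markers. Sspo, which encodes the secreted glycoprotein of the subcommissural organ, an ependymal gland at the front end of the aqueduct, was at 29.0 TPM in morphine-sired 5 and at most 0.151 TPM in the other 11. Spdef, a transcription factor gene of the same marker list, was at 9.14 in morphine-sired 5 beside at most 0.898 TPM. Msx1, a further gene of that list, was at 37.2 TPM there and at 36.3 TPM in morphine-sired 3, and Pax6 was at 10.05 TPM there beside 1.71 to 7.25 TPM in the other 11. Car3 of the same list was not high in morphine-sired 5: it was at 7.31 TPM there, and at 26.1 TPM in saline-sired 3, 26.0 TPM in morphine-sired 4 and 20.95 TPM in morphine-sired 3. Msx2 was below the filter. Tph2, a marker of serotonergic raphe neurons, was at 445 TPM in saline-sired 2, 196 in saline-sired 3 and 195 in morphine-sired 2. In morphine-sired 2 all 8 oligodendrocyte genes were above their median over the others and all 8 astrocyte genes below it. The part of these markers in the levels of the cilia genes was not tested.

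Ccdc153 was correlated with 8 single markers over the 12 libraries on log2(TPM + 1), with two-sided permutation p-values adjusted over the 8 relations by the Benjamini-Hochberg method. With Gfap, a filament gene of astrocytes, Pearson's r was 0.71 (adjusted permutation p = 0.0251) and Spearman's rho 0.85 (0.00296). With the 2 libraries farthest from the median of Ccdc153 left out (morphine-sired 2 and 3), r was 0.83, and it was 0.80 within saline-sired and 0.77 within morphine-sired libraries. With Snap25, a gene of neuronal synapses, r was -0.76 (adjusted permutation p = 0.000720) and rho -0.92 (0.000880). It was -0.89 without the 2 farthest libraries, -0.94 within saline-sired and -0.91 within morphine-sired libraries. With annotated transcripts only, r with Snap25 was -0.51 and no longer passed (adjusted permutation p = 0.253). Snap25 did not stand for all neuron genes. Over the 8 tested genes of the neuron list, r with Ccdc153 without morphine-sired 2 had a median of -0.23. In morphine-sired 2, 3 of the 8 were above their median over the others. Snap25 stood there at 112%, and Gad1 and Gad2 at 67.3% and 68.0%. With the myelin gene Mbp, r was -0.84 (adjusted permutation p = 0.00344) and rho -0.82 (0.00477). It was -0.54 without the 2 farthest libraries, -0.63 within saline-sired and -0.91 within morphine-sired libraries, so the size of the Mbp relation rests in part on those 2. Without saline-sired 2 and morphine-sired 2 it was -0.70 and no longer passed (adjusted permutation p = 0.0615). TPM is a share of each library's total, so such genes cannot vary wholly apart.

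The other 5 relations did not pass. For Ttr, r was -0.37 (adjusted permutation p = 0.315), with 0.68 within saline-sired and -0.79 within morphine-sired libraries, and 0.55 without the 2 farthest. The sign of the Ttr relation therefore rests on those libraries. For Sspo, r was 0.34, for Tph2 -0.23, for the motor neuron marker Chat 0.11 and for Arl13b, a primary cilium gene, 0.38.

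**Figure D4:**
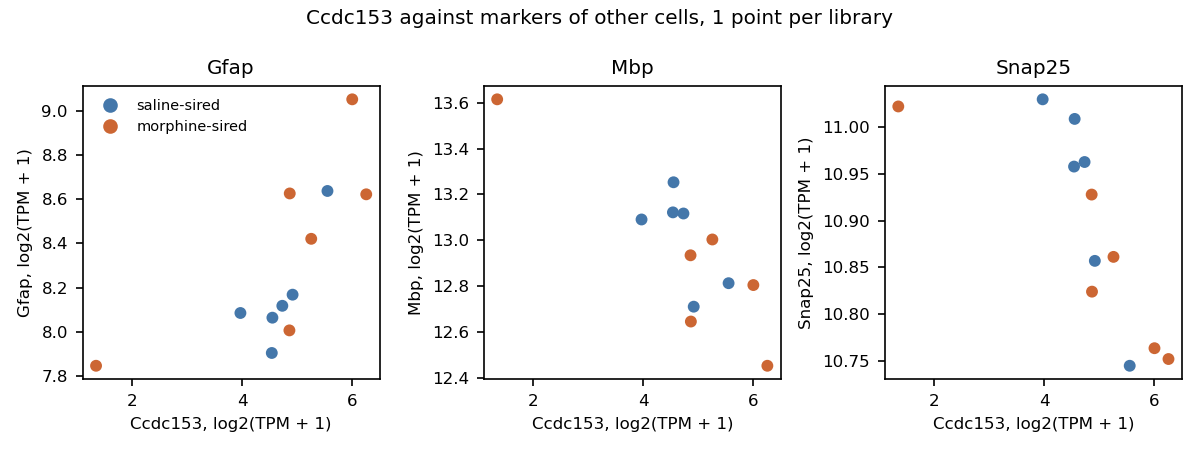
Ccdc153 (x axis) against Gfap, Mbp and Snap25 (y axes), all as log2(TPM + 1), with 1 point per library coloured by group. Gfap is higher and Snap25 and Mbp are lower in libraries with more Ccdc153 (r = 0.71, -0.76 and -0.84), and the point at the far left is morphine-sired 2.

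The comparison the design implies, morphine-sired against saline-sired, gave no call among the motile cilia genes. With limma and Benjamini-Hochberg adjustment over 24540 genes, 0 of the 38 members were called higher and 0 lower, as were 0% of all genes in each direction. At an unadjusted p under 0.05 there were also 0 members, beside 3.22% (790) of all genes. Groups that did not overlap were found for 0 members, beside 0.0896% of all genes. The smallest adjusted p among the members was 0.9998. The mean of log2(TPM + 1) was higher in morphine-sired rats for 33 of 38 members. It was lower for 5 (Cfap43, Cfap45, Spag16, Cfap44 and Drc1). With a pseudocount of 0.1 in place of 1, the mean log2 value was higher for 23. The direction also depended on the scale: in TPM without the log, Cfap43, Cfap45, Cfap44 and Drc1 had the higher mean in morphine-sired rats. Spag16 had the lower mean there on both scales. The median log2 difference was 0.12, beside -0.00 over all genes. Since the members move together, 33 of 38 is not a count of independent genes.

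**Figure D5:**
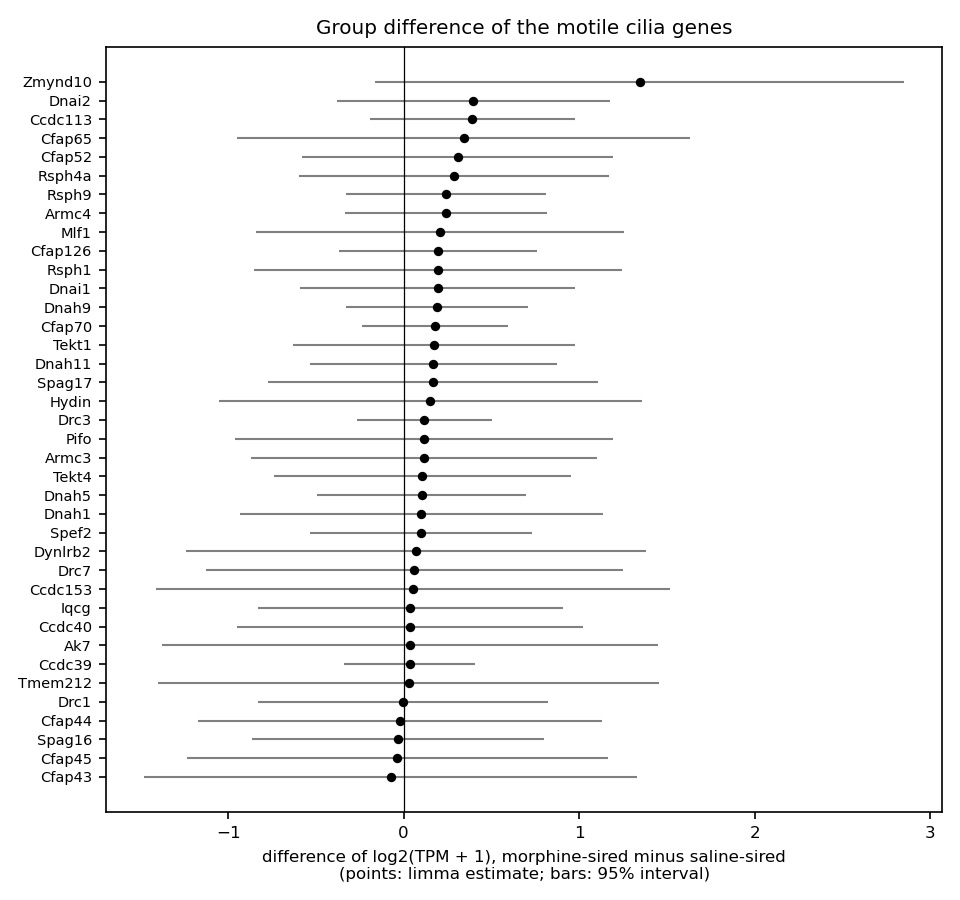
Morphine-sired minus saline-sired difference of log2(TPM + 1) for each of the 38 genes (points, limma estimate) with its 95% interval (bars), n = 6 libraries per group. Every interval includes 0; the estimates run from -0.07 (Cfap43) to 1.34 (Zmynd10).

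The intervals show how little this comparison could resolve. The 95% interval of a member extended 0.89 to either side of its log2 difference in the median, beside 0.30 over all genes, and it lay within -1 to 1 for 17 of the 38. Ccdc153 had means of 26.7 ± 10.6 TPM in saline-sired and 39.0 ± 26.7 TPM in morphine-sired libraries (SD, n = 6 each), a log2 difference of 0.05 with an interval of -1.41 to 1.52. Dynlrb2, at 32.8 ± 14.4 and 45.3 ± 31.4 TPM, had a difference of 0.07 (-1.24 to 1.38). Ccdc39 had the narrowest interval, with a difference of 0.03 (-0.34 to 0.41). The largest estimate was that of Zmynd10, 1.34 (-0.16 to 2.85, limma unadjusted p = 0.0759), and its whole locus with Nprl2 gave 0.34 ± 0.16 (limma unadjusted p = 0.0602).

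The estimate depended on single libraries. Without morphine-sired 2, the median log2 difference over the members was 0.53, all 38 were higher in morphine-sired rats, and 13 had an unadjusted p under 0.05 by limma, beside 6.00% of all genes. None of the 38 passed after Benjamini-Hochberg adjustment (smallest adjusted p by limma 0.819). Without both saline-sired 2 and morphine-sired 2, the median was 0.67 and 30 of 38 had an unadjusted p under 0.05 by limma, beside 8.86% of all genes. Again 0 passed the adjusted test (smallest adjusted p by limma 0.380). These 2 libraries are the highest in Ttr. In the cilia genes they are also the highest saline-sired library (158%) and the lowest library of all (15.1%). The choice of this pair by itself raises the median difference. Since the members move together, 13 and 30 of 38 are not counts of independent genes. Without morphine-sired 3 the median was -0.07, and without morphine-sired 5 it was -0.03. The sign of the median thus changed with either of these 2 libraries.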

How the data were processed

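The deposited transcript files of the 12 libraries give coverage, FPKM and TPM per transcript, per the file headers, which name StringTie 1.3.6 and a merged annotation. The build Rnor_6.0, HISAT2 2.2.0 and another StringTie version, 2.1.2, are named in the submitters' processing notes, which also list DESeq2 1.28.1, Trimmomatic 0.39, SAMtools 1.11 and FastQC 0.11.9. Whether reads were stranded: not given in the sources used here. Symbols came from the series table the authors deposited, whose 12 columns of log2 values were not used. TPM was summed per symbol and locus, with assembled transcripts of loci with 1 symbol included. These assembled transcripts carry most of the level of members such as Cfap65 (annotated share 0%), Cfap44 (0.152%), Spag17 (0.139%) and Dnah9 (6.94%). TPM is relative to each library's total, and StringTie divides reads between overlapping transcripts by estimate.

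Genes whose mean reached 0.5 TPM were compared between groups by limma 3.58.1 (R 4.3.3) on log2(TPM + 1) with an intensity trend, two-sided, with Benjamini-Hochberg adjustment over all 24540 genes and a threshold of 0.05. The pseudocount of 1 added before the log understates changes of low genes. Depth was taken from the ratio of coverage to FPKM (4.39 to 6.03 gigabases). Correlations used 100000 permutations. The planned marker Foxj1 was not found under its symbol, so Ccdc153 took its place after the files were seen. Other calculations used Python 3.11.15 (scipy 1.17.1, pandas 2.3.3, numpy 2.4.6); figures used matplotlib 3.10.9. The limma test was tested on simulated data. Members, gene lists and alternatives were chosen with earlier results of these data known. Named genes were all members, up to 4 genes with the smallest p per list, the correlation markers, the paralogs and the 10 genes most like the members; other list genes were named after their values were seen. Alternatives were another pseudocount, filter, scaling, FPKM, annotated transcripts only, and leaving out libraries.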

Additional observations from a re-analysis of the deposited data

Results flagged for a closer look

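Dixon's criterion was applied to log2(TPM + 1), not to TPM, in 76 sets of 6 values (38 genes in each group). In 14 sets 1 library lay far from the other 5, which chance meets in about 1 of 20 sets. In 9 of the 14 the far library was morphine-sired 2, on the low side, and in 5 saline-sired 2, on the high side. Which values would be far on the TPM scale is not given here, though the values below are in TPM. Since the genes move together, these are not independent cases. The 9 low values in morphine-sired 2 were 1.80 TPM for Dnai1, 3.36 for Dynlrb2, 0.688 for Hydin, 0.480 for Cfap43, 0.283 for Cfap44, 0.787 for Cfap45, 0.427 for Ak7, 1.54 for Ccdc153 and 1.13 for Tmem212. The 5 high values in saline-sired 2 were 10.02 TPM for Dnah1, 3.57 for Spag16, 4.61 for Spag17, 12.5 for Cfap65 and 10.1 for Armc3. Both libraries are also the 2 highest in Ttr.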

How the results depend on the processing

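The number of genes called over the whole table was 0 under every alternative without a left-out library, and 0 to 1 when 1 library was left out (1 without saline-sired 4 and 1 without saline-sired 6, with smallest adjusted p by limma of 0.0398 and 0.0417); neither was a member. The median log2 difference of the members ran from -0.07 to 0.53 over the 12 fits that left out a library. It was 0.06 with a pseudocount of 0.1, 0.15 on FPKM and 0.19 over the 32 members tested with annotated transcripts only. With these alone Drc7 had a difference of 1.29 and Cfap70 of -0.22. Leaving out morphine-sired 3 changed the sign for 21 of 38 members, leaving out morphine-sired 5 for 16, and a pseudocount of 0.1 for 10. Without saline-sired 2 and morphine-sired 2, Pearson's r of Ccdc153 with Mbp was -0.70 and missed the threshold (fewer libraries), and with annotated transcripts only that with Snap25 was -0.51 and missed it; the cause was not tested. The median SD of the members was 1.01 with a pseudocount of 0.1. Depth is known only per library, so low genes have no counting interval. No paired analysis was possible because the labels give no replicate number, litter, batch or day; the numbers 1 to 6 only name the libraries within each group.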

Other observations

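Some genes listed as choroid plexus markers followed the cilia genes in libraries with little Ttr. Folr1, a folate receptor gene, was at 28.3 TPM in morphine-sired 3, where Ttr was at 23.8 TPM, and at 15.9 TPM in both morphine-sired 2 and morphine-sired 5, where Ttr was at 1756 and 19.7 TPM. Clic6, a chloride channel gene, was at 14.5 TPM in morphine-sired 3 and 12.0 TPM in morphine-sired 2. Kcnj13 and Cldn2 did not show this: Kcnj13 was at 6.35 TPM in morphine-sired 2, at 1.82 in saline-sired 2 and listed at 0 in morphine-sired 3. Cldn2 was at 5.62 TPM in morphine-sired 2 and at most 1.81 in the others.

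Further axonemal genes had values that switched between libraries. Kif9, a kinesin gene of the central apparatus, was listed at 0 in 9 libraries and was at 9.50, 5.00 and 7.70 TPM in morphine-sired 3, 4 and 5. Cfap53, a gene of the doublet interior, was at 2.09 to 5.14 TPM in 4 morphine-sired libraries and at most 0.00679 TPM in the other 8. Both genes passed the filter only through morphine-sired libraries: the saline-sired mean was 0 TPM for Kif9 and 0.00077 TPM for Cfap53. They were named for the smallest unadjusted p of their list, and neither was called (adjusted p by limma 0.9998 for each). The loci of Kif9 and Cfap53 each hold 2 symbols, and assembled transcripts were included only for loci with 1 symbol. How transcript estimation bears on these values was not tested.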
